A study of Mus musculus with 2 samples.

Results

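The genes described here are the nuclear genes of oxidative phosphorylation, taken by symbol from the deposited expression table of mouse neural stem cells: Nduf genes with a subunit number, Sdha to Sdhd, Uqcr genes, Cyc1, Cycs, Cox4 to Cox8 genes and Atp5 genes, without the Ndufaf assembly factors. The rule matched 87 of 17359 genes, of which 39 fall under complex I, 4 under complex II, 9 under complex III, 17 under complex IV and 17 under complex V, and 1 is Cycs, which encodes cytochrome c. Levels are in TPM, which sets the reads of a gene against its length and the depth of its library. The mean of the libraries reached 1 TPM for 84 of the genes. The members below that level were Ndufa4l2, Cox6a2 and Cox7b2. The label of the cells is neural stem cell in both samples. The siSCR library came from cells of control genotype transfected with a scrambled siRNA, and the siChd4 library from cells labelled as a Chd4 knockdown, transfected with an siRNA against Chd4. Chd4 is a chromatin remodelling ATPase of NuRD, a complex that also removes histone acetylation. The labels used here give no strain, age or time of harvest.

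Oxidative phosphorylation makes most of the ATP of a respiring cell. Complexes I and II pass electrons from NADH and succinate to ubiquinone, complex III passes them on to cytochrome c, and complex IV passes them to oxygen. Proton pumping by complexes I, III and IV drives complex V, the ATP synthase. Most subunits are encoded in the nucleus and the rest in mitochondrial DNA, whose genes were not analysed here. Neural stem cells are known to rely more on glycolysis than the neurons they form, in which respiration is raised.

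There is 1 library per group, so no test between the conditions was possible, and every difference below is a difference between these libraries. Each TPM fold carries a 95% Clopper-Pearson interval from the estimated counts, which covers counting error only and not the spread between cultures. The libraries held 19816811 (siSCR) and 20072009 (siChd4) estimated counts. Chd4 itself was at 250 TPM in siSCR and 203 TPM in siChd4 (0.815-fold, 0.795 to 0.836), and Seh1l, the nucleoporin gene of the series title, at 44.5 and 34.9 TPM. All 8 of 8 neural stem cell markers were above 1 TPM on average, 6 of them higher in siChd4, with a summed level of 11433 TPM in siSCR and 13544 TPM in siChd4. The 2 lower were Slc1a3 (1254 and 878 TPM) and Pax6 (21.6 and 18.6 TPM). Of the neuronal markers 8 of 8 were higher in siChd4 (711 against 966 TPM summed), as were 7 of 8 oligodendrocyte lineage markers (137 against 266 TPM). Of the 12882 genes whose mean TPM reached 1, 5736 were higher. Most of the neuronal sum was Map2 (427 and 516 TPM) and Gap43 (255 and 362 TPM). Most of the oligodendrocyte sum was Cnp (93.5 and 186 TPM). Astrocyte markers summed to 545 and 555 TPM, with 4 of 6 lower in siChd4, among them Gja1 (105 and 40.8 TPM). Aldh1l1 (309 and 421 TPM) and Gfap (8.81 and 10.6 TPM) were higher. Microglial markers summed to 7.11 and 36.7 TPM (3 of 5 listed higher, 1 lower, Aif1 at 0 in siSCR). Nearly all of that sum was P2ry12 (6.84 and 36.1 TPM), the 1 listed microglial marker whose mean reached 1 TPM. Fibroblast markers summed to 1.42 and 3.33 TPM (5 of 6 higher, Dcn and Lum at 0 in siSCR) and endothelial markers to 2.51 and 3.62 TPM (3 of 4 listed higher). The part of these markers in the results on respiratory genes was not tested. In bulk RNA, fewer cells of a type and less RNA per cell cannot be told apart.

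The oxidative phosphorylation genes were slightly lower in siChd4 as a group. Their summed level was 35072 TPM in siSCR (3.51% of all TPM) and 30808 TPM in siChd4 (3.08%), a fold of 0.878 (0.874 to 0.883). Among other genes whose mean TPM reached 50, the summed level differed by a fold of 1.01. The median log2 ratio (siChd4 over siSCR, on TPM plus 1) over the 84 members was -0.16, against -0.04 over all 12882 genes tested and -0.04 over 4285 genes whose mean TPM reached 50. The ratio was below 0 for 68 of 84 members, and for 55.3% of all genes tested. The differences were small. At least 1.2-fold lower were 25 of 84 members (29.8%), against 22.3% of all genes. This count depended on the scaling: with TMM scaling on CPM it was 15 of 84 (17.9%), below the 19.4% of all genes, and on FPKM 15 of 84 against 15.4%. On TPM plus 1, Ndufc2 and Atp5g1 were the 2 members at least 1.5-fold lower (2.38%, against 4.47% of all genes). On TPM itself the folds of Cox8b (0.478) and Cox7a1 (0.646) also passed that limit, from few counts. Few members were higher: 4 of 84 by at least 1.2-fold (4.76%), against 18.1% of all genes, and 1 by at least 1.5-fold, Cox4i2, against 6.75%. The counting interval of the fold lay below 1 for 56 members and above 1 for 6, against 34.1% and 25.1% of all genes. Such calls depend on depth, and among genes whose mean TPM reached 50 the shares were 41.8% and 29.0%, against 55 and 5 of the 80 members at that level. The members were spread over a narrower range than all genes whose mean TPM reached 50, though levels were not matched. In siSCR the median level was 326 TPM over these members and 97.3 TPM over all genes of that set. The SD of the log2 ratio was 0.19 over the 80 members whose mean TPM reached 50 and 0.29 over all genes past that limit.

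**Figure D1:**
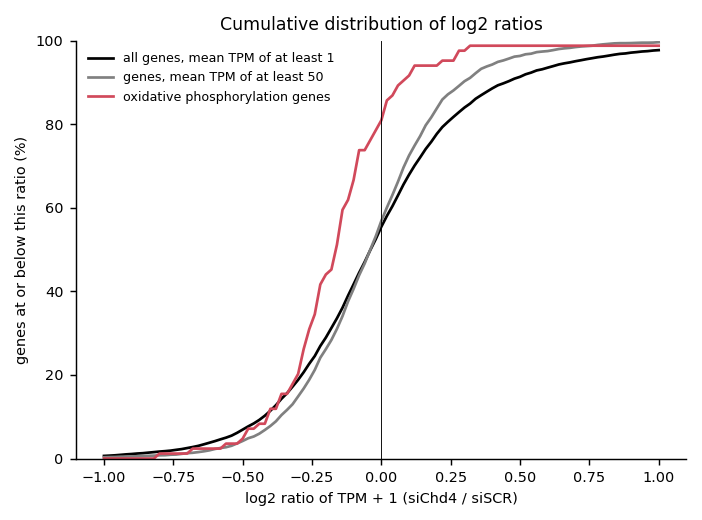
Cumulative share of genes (vertical axis, %) at or below each log2 ratio of TPM plus 1 (horizontal axis, siChd4 over siSCR) for the 12882 genes tested (black), the 4285 whose mean TPM reached 50 (grey) and the 84 oxidative phosphorylation genes (red). The red line is to the left of the others over most of the middle range, with a median of -0.16 against -0.04, and joins them at the lowest ratios.

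No single gene made up the lower sum. The net difference was -4264 TPM. Atp5b, the catalytic beta subunit of the ATP synthase, took 12.4% of it, Ndufc2 10.5% and Cox7c 6.40%. Without these 3 genes the fold of the sum was 0.900 (0.894 to 0.905) over 81 members.

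**Figure D2:**
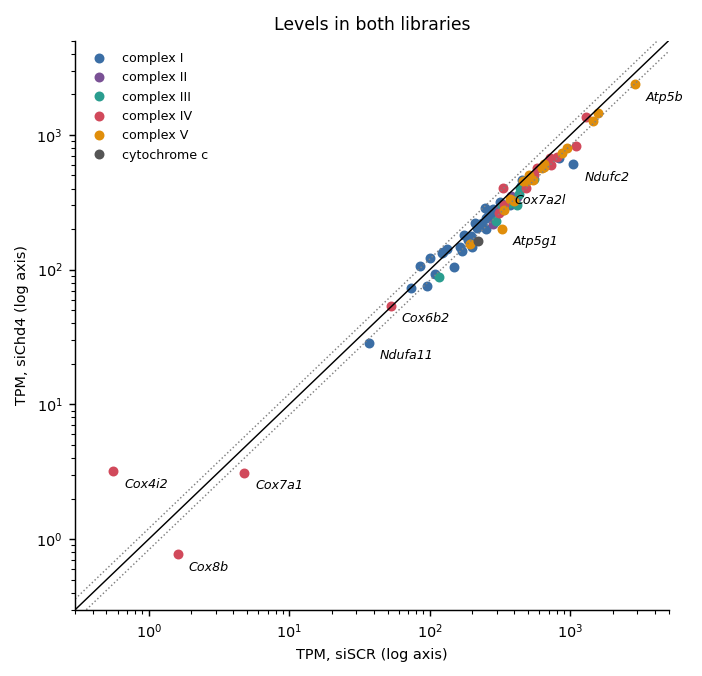
TPM in siSCR (horizontal, log axis) against TPM in siChd4 (vertical, log axis) for the 84 members whose mean TPM reached 1, coloured by complex, with the line of equality and dotted lines at a 1.2-fold difference. Most points lie on or just below the line of equality. Cox4i2, Cox8b, Ndufc2 and Atp5g1 stand furthest from it among the labelled genes, where Cox4i2 and Cox8b rest on few counts.

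Promoters are shown for the 3 genes of the ATP synthase c subunit, which encode the same mature protein and differed in their ratios, for Ndufc2, the member with the lowest ratio, and for Cycs and Sdhb, which hold a motif of NRF1, a transcription factor known for respiratory chain genes. The sequences are from RefSeq on GRCm38.p6, an older build than the mm39 of the expression table, and are the 150 bases before the annotated start, 5′ to 3′ on the gene's strand. The positions are Atp5g1 chr11:96075632-96075781 on the minus strand, Atp5g2 chr15:102671048-102671197 on the minus strand, Atp5g3 chr2:73911327-73911476 on the minus strand, Cycs chr6:50566570-50566719 on the minus strand, Sdhb chr4:140961121-140961270 on the plus strand and Ndufc2 chr7:97399853-97400002 on the plus strand. Capitals mark a match to one of 4 motifs: GCGCATGC (NRF1 core), CCGGAAGT (an ETS site of GABP), AAGGTCA (half-site of estrogen-related receptors) or AAGATGG (YY1 core), each searched on both strands. Overlapping matches on both strands were merged in capitals.
Atp5g1: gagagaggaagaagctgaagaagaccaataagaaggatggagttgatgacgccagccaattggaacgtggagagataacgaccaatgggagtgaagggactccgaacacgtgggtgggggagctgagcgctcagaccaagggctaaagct
Atp5g2: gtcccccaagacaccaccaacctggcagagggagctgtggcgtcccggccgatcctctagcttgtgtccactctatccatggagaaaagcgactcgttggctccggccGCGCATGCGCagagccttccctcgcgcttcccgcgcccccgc
Atp5g3: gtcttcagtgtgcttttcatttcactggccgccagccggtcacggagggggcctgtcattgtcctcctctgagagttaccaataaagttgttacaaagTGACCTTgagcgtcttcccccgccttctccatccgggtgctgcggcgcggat
Cycs: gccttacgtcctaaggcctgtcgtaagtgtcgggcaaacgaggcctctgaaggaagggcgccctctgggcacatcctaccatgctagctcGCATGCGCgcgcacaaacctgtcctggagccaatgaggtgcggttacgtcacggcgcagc
Sdhb: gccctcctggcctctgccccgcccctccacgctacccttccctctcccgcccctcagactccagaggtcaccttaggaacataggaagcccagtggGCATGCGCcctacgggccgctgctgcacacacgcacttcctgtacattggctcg
Ndufc2: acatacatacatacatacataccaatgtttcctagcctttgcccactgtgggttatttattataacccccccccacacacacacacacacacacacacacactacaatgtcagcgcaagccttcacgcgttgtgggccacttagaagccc

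In these windows Atp5g2 held an NRF1 core read on both strands, Cycs and Sdhb an NRF1 core on the reverse strand, and Atp5g3 a receptor half-site on the reverse strand. None of the 4 motifs was in the 300 bases of the table's promoters of Atp5g1 or Ndufc2, which says only that these letters are not in this window. Over the whole promoter (250 bases before to 50 after the start), 69 of the 84 members had an entry. The NRF1 core was in 11 of these (15.9%), in 5.99% of the 10330 genes tested that have an entry and in 2.71% of all 32851 promoters in the table. For the receptor half-site the shares were 11.6%, 3.60% and 4.72%. For the YY1 core they were 15.9%, 8.24% and 6.34%, and for the ETS site 7.25%, 8.92% and 3.89%. Members with and without the NRF1 core had nearly the same median log2 ratio, -0.15 and -0.16. With the ETS site the median was -0.22 over 5 members, against -0.15 over the 64 without it. A match is a description of the letters and not a bound site.

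Complex I, NADH dehydrogenase, held members that differed in both directions. Its summed level was 9608 TPM in siSCR and 8514 TPM in siChd4 (0.886-fold, 0.876 to 0.896). Over 38 members the median log2 ratio was -0.11, with 26 below 0 (68.4%, against 55.3% of all genes) and 12 above. At least 1.2-fold lower were 9 of 38 (23.7%), close to the 22.3% of all genes, and 2 were at least 1.2-fold higher (5.26%, against 18.1%). The 7 core subunits encoded in the nucleus carry the flavin and the iron-sulfur clusters, and their median log2 ratio was -0.08. Ndufs1, the largest of them, stood apart at 201 TPM in siSCR and 147 TPM in siChd4 (0.731-fold, 0.698 to 0.765). The core subunits below differed less between the libraries. Ndufv1, which holds the flavin that accepts electrons from NADH, was at 264 and 250 TPM. Its partner Ndufv2 was at 236 and 223 TPM. In the arm that leads to ubiquinone, Ndufs3 was at 272 and 266 TPM, and the interval of its fold includes 1. Ndufs7 was at 163 and 147 TPM and Ndufs8 at 216 and 203 TPM, where the interval of Ndufs8 includes 1.

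The widest differences in complex I were among its accessory subunits. Ndufc2, a subunit of the membrane arm, was the most abundant complex I gene in siSCR, at 1053 TPM, and was at 604 TPM in siChd4 (0.573-fold, 0.548 to 0.599). Of all genes tested, 1.64% had a lower log2 ratio than Ndufc2. Its neighbour in name Ndufc1 was at 197 and 178 TPM (0.902-fold, 0.801 to 1.02), so the 2 differed in their folds by more than counting error. Without Ndufc2 the summed level of complex I had a fold of 0.925 (0.914 to 0.936). Ndufs6, an accessory subunit that binds zinc, was at 148 and 105 TPM (0.708-fold, 0.621 to 0.808). Ndufa4, now counted as a subunit of complex IV despite its name, was at 830 and 673 TPM (0.811-fold, 0.769 to 0.856). Because complexes were assigned by symbol, the sums, medians and counts of complex I given here include Ndufa4, and those of complex IV leave it out. Among the higher genes, Ndufa1, a small X-linked subunit, was at 85.7 TPM in siSCR and 107 TPM in siChd4 (1.25-fold, 1.07 to 1.45). Ndufs4, whose loss in mice gives a model of Leigh syndrome, was at 101 and 122 TPM (1.21-fold, 1.12 to 1.30). Ndufa7 was at 246 and 285 TPM (1.16-fold, 1.06 to 1.26), which is short of the 1.2-fold limit. The 15 measured members of a membrane arm list had a median of -0.15, with 12 below 0 (80%, against 55.3% of all genes). At least 1.2-fold lower were 3 of them (20%, near the 22.3% of all genes). The level of Ndufa11 (37.0 and 28.6 TPM) rests on an effective length of 2.61 kb in the table, whereas the matched GENCODE transcript has 918 bases, so its level per length is uncertain.

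**Figure D3:**
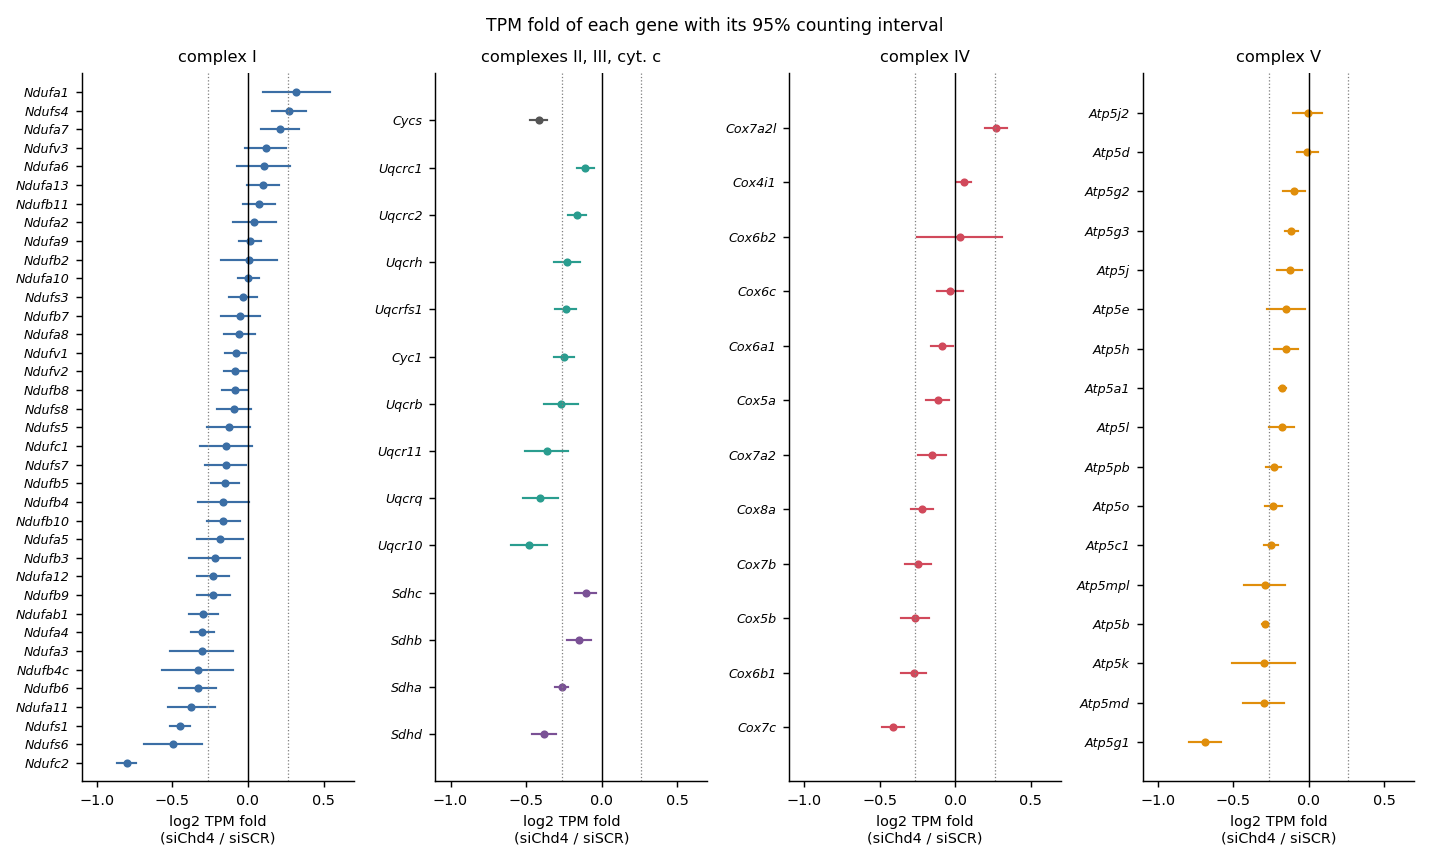
TPM fold of siChd4 over siSCR on a log2 scale (horizontal axis) for 80 of the 81 members whose mean TPM reached 5, 1 row per gene, in panels by complex; points are folds, bars are 95% counting intervals, the solid line marks equal levels and dotted lines a 1.2-fold difference. All genes of complexes II and III and Cycs lie left of the solid line, whereas complex I runs from Ndufc2 (0.573-fold) to Ndufa1 (1.25-fold).

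Complexes II and III and cytochrome c were lower in every measured member. The median log2 ratio of these 14 genes was -0.26. All 14 ratios were below 0, against 55.3% of all genes. All 14 counting intervals lay below 1, against 41.8% of genes whose mean TPM reached 50. The folds of the 14 genes differed among themselves: 6 of 14 were at least 1.2-fold lower (42.9%, against 22.3% of all genes) and 8 were not. In complex II, succinate dehydrogenase, the catalytic flavoprotein gene Sdha was at 417 TPM in siSCR and 348 TPM in siChd4 (0.833-fold, 0.809 to 0.859). The iron-sulfur subunit gene Sdhb was at 315 and 284 TPM. Of the membrane anchors, Sdhc was at 379 and 353 TPM and Sdhd at 283 and 218 TPM. Sdhd was thus the lowest of the 4, with a fold of 0.768 (0.726 to 0.812), whose interval does not meet that of Sdhc (0.930, 0.886 to 0.976).

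In complex III, cytochrome bc1, the summed level was 3284 TPM in siSCR and 2742 TPM in siChd4 (0.835-fold, 0.820 to 0.850), and the median log2 ratio was -0.25. The subunits that carry the electrons were lower by similar folds. Cyc1, cytochrome c1, was at 433 and 364 TPM (0.841-fold, 0.804 to 0.879), and Uqcrfs1, the Rieske iron-sulfur protein, at 368 and 312 TPM (0.848-fold, 0.808 to 0.889). The core proteins differed less, Uqcrc1 at 438 and 406 TPM (0.929-fold) and Uqcrc2 at 328 and 293 TPM (0.893-fold). The lowest ratios were those of small subunits. Uqcr10 was at 419 and 300 TPM (0.716-fold, 0.659 to 0.779). For Uqcrq the values were 117 and 88.1 TPM (0.755-fold), and for Uqcr11 294 and 229 TPM (0.777-fold). Uqcrb was at 333 and 276 TPM, and Uqcrh, the hinge protein that binds cytochrome c1, at 555 and 474 TPM. Cycs, the mobile carrier between complexes III and IV, which also triggers apoptosis when released from mitochondria, was at 219 TPM in siSCR and 164 TPM in siChd4 (0.749-fold, 0.719 to 0.780).

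In complex IV, cytochrome c oxidase, the nuclear subunits surround a core made in mitochondria. Over the 12 genes whose mean TPM reached 5, the median log2 ratio was -0.13. Of these, 9 were below 0 (75%, against 57.2% of all genes at that level). Cox7c had the lowest ratio of these, at 1095 TPM in siSCR and 822 TPM in siChd4 (0.751-fold, 0.714 to 0.789). Cox6b1 was at 724 and 598 TPM (0.826-fold), and Cox5b at 485 and 403 TPM (0.831-fold). Cox4i1, the regulatory subunit with which assembly begins and the most abundant of the complex, was not lower, at 1298 and 1352 TPM (1.04-fold, 1.01 to 1.08). Cox7a2l, which shares its fold with Cox7a subunits and acts in joining complexes III and IV into supercomplexes, was at 333 TPM in siSCR and 402 TPM in siChd4 (1.21-fold, 1.15 to 1.27). Its paralog Cox7a2, of complex IV itself, was at 335 and 301 TPM (0.899-fold, 0.842 to 0.959). The paralogs were thus nearly equal in siSCR and apart in siChd4, where Cox7a2l made up 56.9% of the TPM of the Cox7a genes, against 49.5% in siSCR.

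Tissue-specific isoforms of complex IV were rare apart from Cox6b2. The heart and muscle isoforms rested on few counts: Cox6a2 had 0.99 and 2 estimated counts in siSCR and siChd4, Cox8b 4 and 2, and Cox7a1 12 and 8.19. For Cox8b and Cox7a1 the intervals of the folds include 1. The striated muscle markers summed to 4.07 TPM in siSCR and 15.1 TPM in siChd4, and 8 of the 8 listed were higher in siChd4. Tnni1 and Tnnt2 were listed at 0 in siSCR. Cox4i2, the isoform linked to low oxygen and to lung, was at 0.56 TPM in siSCR and 3.19 TPM in siChd4, from 3 and 18 counts, a ratio of 5.70 with a counting interval of 1.66 to 30.2. At that level it made up 0.235% of the Cox4 TPM in siChd4. Cox6b2, known as a testis isoform, was at 53.1 and 54.2 TPM (1.02-fold, 0.840 to 1.24). Because Cox6b1 was lower, the share of Cox6b2 in the TPM of both genes was 6.82% in siSCR and 8.30% in siChd4. By counts, the exact 95% intervals of that share overlapped (6.83% to 8.93% and 8.28% to 10.7%). Ndufa4l2, a relative of Ndufa4 induced by hypoxia, had 2.96 and 3 counts.

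**Figure D4:**
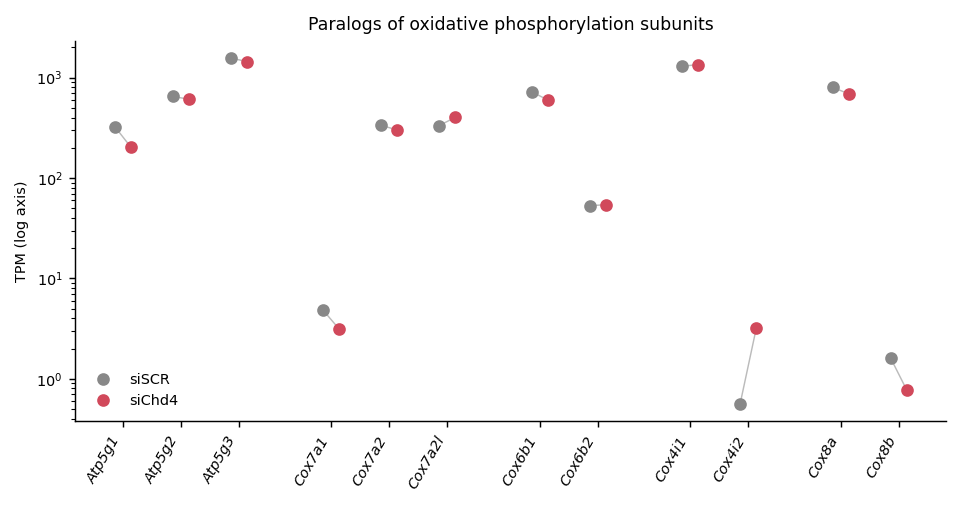
TPM (vertical, log axis) in siSCR (grey) and siChd4 (red) for paralogous subunit genes, 1 point per library. Atp5g1 is lower in siChd4 (202 against 325 TPM) while Atp5g2 and Atp5g3 differ little, Cox7a2l and Cox7a2 differ in opposite directions, and Cox4i2, Cox7a1 and Cox8b lie below 5 TPM in both libraries.

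Complex V, the ATP synthase, had the highest summed level, 13278 TPM in siSCR and 11547 TPM in siChd4 (0.870-fold, 0.862 to 0.877). The median log2 ratio was -0.18, and all 17 members had ratios below 0 on deposited TPM, against 55.3% of all genes. For 15 of the 17 the interval lay below 1, against 41.8% of genes whose mean TPM reached 50. At least 1.2-fold lower were 5 of 17 (29.4%, against 22.3% of all genes). With median-of-ratios or TMM scaling, or on FPKM, 15 of the 17 were below 0, against 51.4%, 51.3% and 47.7% of all genes. In the catalytic F1 head, Atp5b was the most abundant of all members, at 2897 TPM in siSCR and 2368 TPM in siChd4 (0.818-fold, 0.806 to 0.829). The alpha subunit gene Atp5a1 was at 1438 and 1274 TPM (0.886-fold, 0.871 to 0.902), and its interval does not meet that of Atp5b. Atp5d, of the central stalk, was nearly equal at 460 and 457 TPM. The 4 genes of the peripheral stalk, which keeps the head from turning, were close to each other, with log2 ratios between -0.23 and -0.13. Among the small membrane subunits, Atp5md was at 399 and 325 TPM (0.814-fold) and Atp5k, subunit e, at 192 and 156 TPM (0.815-fold). Atp5j2, subunit f, was at 506 and 504 TPM (0.996-fold, 0.932 to 1.07).

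The c subunit forms the rotating ring of the membrane part and is encoded by 3 genes that differ in their import sequences. Atp5g1 was at 325 TPM in siSCR and 202 TPM in siChd4 (0.622-fold, 0.579 to 0.668), the lowest fold in complex V. Atp5g2 was at 651 and 609 TPM (0.936-fold, 0.890 to 0.985). Atp5g3 was at 1569 and 1449 TPM (0.923-fold, 0.895 to 0.952). The interval of Atp5g1 lies below those of both paralogs, and its share of the c subunit TPM was 12.8% in siSCR and 8.93% in siChd4. By counts the share was 14.4% (exact 95% interval 13.8% to 15.0%) and 10.2% (9.64% to 10.7%). The summed level of the 3 genes was 2545 and 2260 TPM, a fold of 0.888.

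Many of these genes have processed pseudogenes, and reads from near-identical copies can be counted under either. In GENCODE M21 transcripts, 86 of 87 members were matched, and the share of each member's words of 50 bases that another gene's transcript also holds was taken. For 45 of the 83 matched members whose mean TPM reached 1 no word was shared, among them Ndufc2 and Atp5g3. The share was at least 10% for 24. It was 56.2% for Atp5g1, mostly with 1 processed pseudogene, and 46.4% for its paralog Atp5g2. For Cox7c it was 48.2%, for Cycs 28.2% and for Cox7a2l 19.8%. The values of these genes are uncertain, by an amount that the shares do not give. Ndufb4 shared 37.0% with Ndufb4c, a member that GENCODE M21 lists as a pseudogene (94.9 TPM in siSCR and 75.3 TPM in siChd4). That share is over a matched transcript of 971 bases, whereas the effective length of Ndufb4 was 0.405 kb. The share over the sequence that was counted may thus be far larger, and the levels of Ndufb4 and Ndufb4c may not be separable. The c subunit genes shared no such word with each other. Over the 59 members under 10% the median log2 ratio was -0.15, with 45 below 0, and over the other 24 it was -0.23, with 22 below 0. How reads were divided between copies was not tested.

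Other mitochondrial genes were compared in 10 lists, whose counts stand beside those of all genes tested, of which 55.3% were below 0, 22.3% at least 1.2-fold lower and 18.1% at least 1.2-fold higher. Enzymes of the tricarboxylic acid cycle, which feeds NADH and succinate to the chain, were lower in 14 of 14 members, with a median log2 ratio of -0.24, and 5 of 14 were at least 1.2-fold lower (35.7%). Suclg2, of the succinyl-CoA ligase that makes GTP, was at 194 TPM in siSCR and 114 TPM in siChd4 (0.589-fold, 0.558 to 0.620). Idh2, the NADP-dependent isocitrate dehydrogenase, was at 343 and 237 TPM (0.692-fold). Of 11 genes of pyruvate entry, 10 had ratios below 0 and 5 were at least 1.2-fold lower (45.5%), with a median of -0.11. Pdk1, a kinase that inhibits pyruvate dehydrogenase, was at 12.1 and 7.31 TPM, and the opposing phosphatase Pdp1 at 12.6 and 8.72 TPM. Coenzyme Q synthesis genes had a median of -0.19, with 9 of 11 below 0 and 3 at least 1.2-fold lower (27.3%, near the share of all genes). These included Coq9 (98.6 and 70.7 TPM) and Coq8a (2.73 and 2.06 TPM), where the counting interval of Coq8a, 0.496 to 1.14, includes 1.

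Assembly factors, which are not part of the finished complexes, were also lower in most cases. For complex I, 16 of 17 were below 0 and 6 at least 1.2-fold lower (35.3%, median -0.21), with Ndufaf6 at 25.8 TPM in siSCR and 18.1 TPM in siChd4 and Ndufaf5 at 37.0 and 27.3 TPM. For complexes II and III, 8 of 10 were below 0 and 3 at least 1.2-fold lower (30%, near the 22.3% of all genes, median -0.14). Sdhaf4, which helps Sdha mature, was at 48.4 and 31.3 TPM (0.647-fold, 0.526 to 0.794), and Lyrm7 at 4.04 and 2.72 TPM. Of the complex IV factors, 14 of 22 were below 0 (63.6%), 6 at least 1.2-fold lower (27.3%) and 3 at least 1.2-fold higher (13.6%), shares close to those of all genes (median -0.13). Cox17, a copper chaperone, was at 84.4 and 59.2 TPM and Cox10, of heme A synthesis, at 30.7 and 22.2 TPM. On the other side, Cox16 was at 38.8 and 66.6 TPM (1.72-fold) and Cox19 at 63.8 and 89.0 TPM (1.39-fold). Of the 5 measured complex V factors 4 were below 0 (median -0.07) and 2 at least 1.2-fold lower (40%), Tmem70 (86.6 and 66.9 TPM) and Atpaf1 (45.8 and 35.6 TPM).

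Regulators of mitochondrial DNA and biogenesis had a median of -0.16, with 14 of 19 below 0 (73.7%, against 55.3% of all genes), 6 at least 1.2-fold lower (31.6%, against 22.3%) and 1 higher (5.26%, against 18.1%). Ppargc1a, the coactivator PGC-1alpha that induces respiratory genes, was at 36.9 TPM in siSCR and 13.9 TPM in siChd4 (0.376-fold, 0.345 to 0.410). Gabpa, the ETS factor that binds many respiratory promoters, was at 65.0 and 44.2 TPM (0.681-fold). Mterf1a was at 3.08 and 5.35 TPM. The part of these regulators in the levels of the subunit genes was not tested. Protein import genes had a median of -0.11, with 15 of 19 below 0 and 4 at least 1.2-fold lower (21.1%, no more than the 22.3% of all genes), among them Timm8a1 (105 and 74.5 TPM) and Tomm5 (142 and 109 TPM). Carriers of ADP and phosphate and the VDAC channels had a median of -0.08, with 5 of 7 below 0 and 0 at least 1.2-fold lower. The 1 gene of that list that was at least 1.2-fold higher was Ckmt1, the mitochondrial creatine kinase, at 10.2 and 16.0 TPM.

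**Figure D5:**
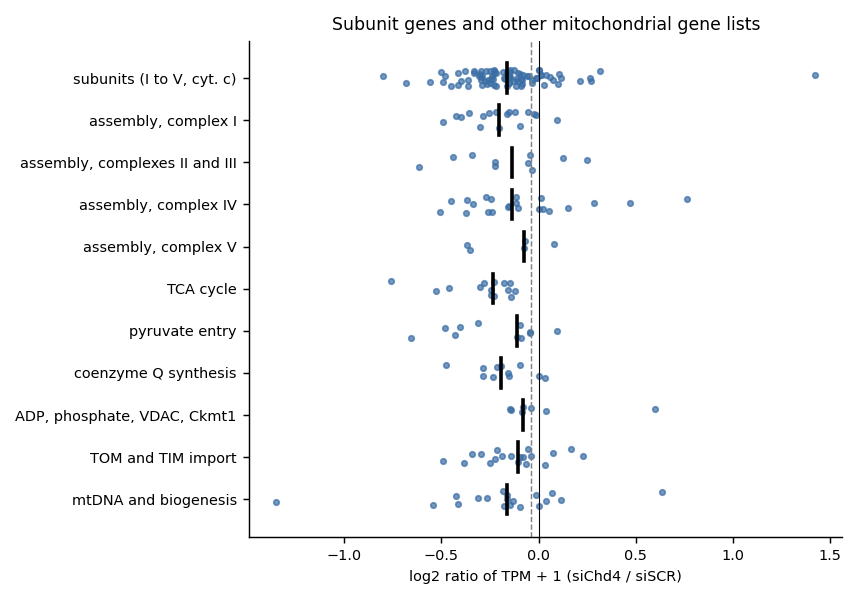
Log2 ratio of TPM plus 1 (horizontal axis, siChd4 over siSCR) of each gene whose mean TPM reached 1, by list, 1 point per gene; thick bars are list medians, the solid line is 0 and the dashed line the median of all genes tested (-0.04). Medians run from -0.07 for complex V assembly to -0.24 for the tricarboxylic acid cycle, and Ppargc1a is the lowest point among the regulators.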

How the data were processed

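RNA of mouse neural stem cells was sequenced in 1 siSCR and 1 siChd4 library. Per the file headers, the authors deposited FPKM, TPM and read counts per gene. The counts deposited by the authors are estimated counts, since most are not whole numbers. The submitters' processing notes name mm39 as the build. Aligner, counter, annotation and use of strand: not given in the sources used here.

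Members and lists were chosen with earlier results of these data known. The log2 ratio was taken on TPM plus a pseudocount of 1, for genes whose mean TPM reached 1, which understates the difference of low genes. Limits of 1.2-fold and 1.5-fold are on that scale. Intervals (95%) use counts rounded to whole numbers. They were checked on simulated counts with counting error only and equal gene lengths in both libraries. That check cannot show how they perform on estimated counts or on reads shared between genes. A floor of 3 counts was 0.151 CPM in siSCR and 0.149 CPM in siChd4. Named with values were the core subunits of complex I (1 is not reported here), all members of complexes II and III and Cycs, the 3 highest, 3 lowest and 2 most abundant genes per complex (mean TPM from 5), paralogs, and up to 2 genes per direction of each other list. Ndufc1, Ndufa11, Ndufb4c and Ndufb4 were added after their values were seen. Atp5a1 and the single cell type markers were also named outside these rules. Alternatives were FPKM, TMM scaling (edgeR 4.0.16), median-of-ratios scaling, a pseudocount of 0.1, other filters, subtraction of the length trend (lowess, span 0.3, statsmodels 0.14.6), the mean, and other fold limits. Subtraction of the trend with level, and the set of genes whose mean TPM reached 50, were added after the data were seen.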

Additional observations from a re-analysis of the deposited data

How the results depend on the processing

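The medians of the members and of complexes I to V stayed below 0 under all alternatives run. They also stayed between the median lower and median upper bound of their genes' counting intervals (-0.27 to -0.06 for all members). That band describes single genes and is not an interval of a median, so it cannot show that a median was unmoved. The median of all members lay between -0.10 (FPKM) and -0.16, and its distance from the median of all genes tested between -0.11 and -0.15. With the trends of length and level subtracted it was -0.15, with 69 of 84 members below 0, against 49.7% of all genes. All 29 members at least 1.2-fold lower or higher kept their sign in 6 alternatives. They were picked for the size of their ratios, and these alternatives mostly shift ratios by less, so a change of sign was unlikely from the start. The counts moved more, since many members lie near the limit: 15 were at least 1.2-fold lower with TMM scaling on CPM and 15 on FPKM (17.9% each), against 25. The share of all genes was 19.4% with TMM scaling, above that of the members, and 15.4% on FPKM. Further, 50 were lower past a 1.1-fold limit (59.5%, against 36.5% of all genes) and 2 past a 1.5-fold limit (2.38%, against 4.47%). At least 1.2-fold higher were 2 with the length trend subtracted (2.38%, where the share of all genes was 20.7%), against 4 in the main setting. In that setting 1 was higher past a 1.5-fold limit (1.19%, against 6.75% of all genes). The fold of the summed level was 0.897 with median-of-ratios scaling, 0.897 with TMM scaling and 0.915 on FPKM, against 0.878. All of these alternatives lie above the counting interval of that fold, 0.874 to 0.883. Of 504 values of single members under other settings, 485 stayed within the counting interval of the gene and 19 moved beyond it. No difference of at least 1.2-fold changed sign. This mostly sets a shift common to all genes against the width of each interval, and is no measure of stability. With the pseudocount of 0.1, which hardly alters abundant genes, all 84 stayed within. Depth limits the genes near 3 counts: Cox4i2, Cox6a2, Cox7b2, Cox8b and Ndufa4l2. No paired analysis was possible because there is 1 library per group.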
